A study of Mus musculus with 22 samples.

Results

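The genes described here are 9 that mark the dopaminergic neurons of the midbrain, namely Th, Slc6a3, Slc18a2, Ddc, Pitx3, Nr4a2, Foxa1, Foxa2 and Lmx1a. They were taken by name from the 20129 gene symbols on the arrays, and each was read from its RefSeq-identified probe with the highest median over the 22 arrays. All 9 were in the set of 39621 probes that was tested, which holds the probes well above background in at least 1 fraction of each series. Transcriptome Tomography slices a whole brain along an axis, pools the slices into slabs called fractions and measures the RNA of each fraction on a microarray. The brains were those of 3 male C57BL/6J mice, an inbred strain, with no treatment or allele named in the labels, and each mouse gave 1 series, of 10 coronal, 6 horizontal or 6 sagittal fractions. The titles put the age at 7 days after birth, whereas the age field of the same labels puts it at 3 days. Every fraction was hybridised once, so slabs of 1 mouse stand in for replicates, p-values measure the spread between slabs, and no contrast compares animals. Correlations over the 22 fractions pool the 3 mice, so differences between animals enter them.

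Positions are fraction numbers, because the labels and the methods give different slab thicknesses. Coronal fraction 10 pooled slabs 10 and 11, sagittal fraction 1 pooled slabs 1 and 2, sagittal fraction 6 pooled slabs 7 to 9, and every other fraction was 1 slab. The labels do not say at which end of the brain fraction 1 lies. All 3 Hox genes of the hindbrain list were highest in coronal fraction 1, and all 4 markers of olfactory bulb projection neurons were highest in coronal fraction 10. Levels are log2 of the processed intensity minus log2 of the array's 75th percentile, so a level of 0 is as bright as that percentile, and levels of different genes are not compared, since each probe has its own brightness. On 7 arrays (coronal 1 and 2, horizontal 1 to 3, sagittal 1 and 3) the spike-in control slope was 0.773 to 0.891, outside the accepted range, and 36119 to 41965 probes were well above background. On the other 15 the slope was 0.949 to 1.07 and 29605 to 36342 probes were.

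Dopaminergic neurons make dopamine from tyrosine in successive enzyme steps, load it into vesicles and take it back up after release. Those of the midbrain lie in the substantia nigra and the ventral tegmental area, and a set of transcription factors specifies them before birth and maintains them afterwards. Several of these genes also work elsewhere. Noradrenergic neurons use tyrosine hydroxylase, serotonergic neurons use the decarboxylase, all monoamine neurons use the vesicular transporter, and the periglomerular interneurons of the olfactory bulb make dopamine as well.

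Promoter windows of 4 of the 9 genes are printed because each of the 4 genes was high in coronal fractions 4 and 5 and because Nr4a2 and Foxa1 encode factors that bind DNA. Each is the 250 bases before a RefSeq start (build GRCm38.p6), read 5′ to 3′ on the gene's strand. Those of Ddc (chr11:11898145-11898394, minus strand) and Foxa1 (chr12:57546112-57546361, minus strand) hold a motif match, in capitals. A second Ddc window, before another start of the gene (chr11:11890409-11890658, minus strand), holds no match and is not printed. Those of Th (chr7:142899996-142900245, minus strand) and Slc6a3 (chr13:73536497-73536746, plus strand) hold none and are shown for comparison.
Ddc: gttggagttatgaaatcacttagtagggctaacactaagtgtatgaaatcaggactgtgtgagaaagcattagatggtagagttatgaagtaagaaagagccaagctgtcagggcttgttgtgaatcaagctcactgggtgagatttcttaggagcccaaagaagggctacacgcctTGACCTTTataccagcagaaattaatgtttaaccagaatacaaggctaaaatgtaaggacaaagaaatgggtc
Foxa1: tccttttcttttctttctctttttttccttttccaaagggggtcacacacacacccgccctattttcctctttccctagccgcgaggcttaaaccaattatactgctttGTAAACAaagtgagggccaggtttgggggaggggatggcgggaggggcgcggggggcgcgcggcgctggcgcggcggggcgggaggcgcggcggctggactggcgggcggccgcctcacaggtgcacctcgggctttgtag
Th: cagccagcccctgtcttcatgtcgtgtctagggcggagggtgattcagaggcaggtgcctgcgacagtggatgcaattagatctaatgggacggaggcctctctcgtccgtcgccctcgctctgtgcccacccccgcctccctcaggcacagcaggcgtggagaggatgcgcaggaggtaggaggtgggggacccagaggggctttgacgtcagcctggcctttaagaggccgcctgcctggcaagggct
Slc6a3: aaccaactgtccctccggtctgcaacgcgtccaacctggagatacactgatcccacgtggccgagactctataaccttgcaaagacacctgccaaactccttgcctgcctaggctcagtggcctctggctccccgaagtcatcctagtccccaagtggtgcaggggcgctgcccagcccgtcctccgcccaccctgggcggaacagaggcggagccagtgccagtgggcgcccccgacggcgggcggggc
The capitals in Ddc are the Nr4a2 element AAAGGTCA on the opposite strand, which starts at position -73 from the start, and those in Foxa1 are the forkhead element TGTTTAC on the opposite strand, from position -141. Both strands were searched in 12 windows of the 9 genes. The Nr4a2 element stood in 1 of the 12 and in 1.34% of all 32851 promoter windows of that length, and the forkhead element in 1 of the 12 and in 3.17% of all. The Pitx element TAATCC stood in none of the 12 and in 6.25% of all. A match is a run of letters and not a site that was measured.

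Slc6a3, Foxa1 and Foxa2 were confined to coronal fractions 4 to 6, and the other 6 genes were also high in other coronal slabs. A gene was called high in a fraction where it was well above background and within 2 log2 units of its own highest level in that series. By this rule the 3 confined genes were high in coronal fractions 4 and 5 only, and 0.419% of the 16691 genes in the tested set were confined to fractions 4 to 6. Th was high in fractions 4, 5 and 10, Ddc in 1 to 5, Lmx1a in 2 to 6, Nr4a2 in 4 to 9, Slc18a2 in 1 to 7 and 9, and Pitx3 in every fraction but 2. The last of these follows from a narrow range, because Pitx3 varied by 2.44 log2 units over the coronal fractions, against 7.00 for Slc6a3. Within 1 log2 unit of the highest level, Slc18a2, Pitx3 and Nr4a2 were confined too, which made 6 of 9, against 0.905% of all 16691 genes.

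**Figure D1:**
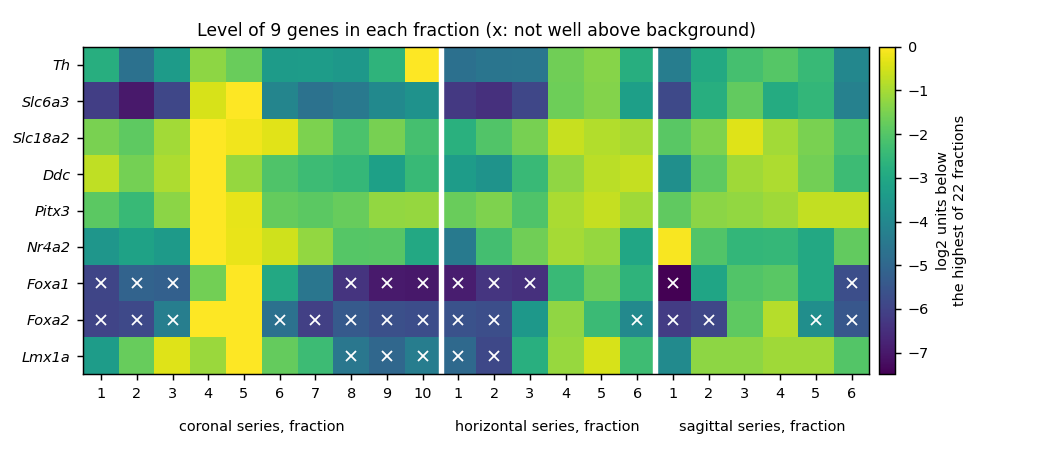
Level of the 9 genes (rows) in the 22 fractions (columns, 1 array each), as log2 units below the gene's own highest level, with a cross where the probe was not well above background. Coronal fractions 4 and 5 are bright in nearly every row, Th is brightest in coronal fraction 10 and Nr4a2 is bright in sagittal fraction 1.

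Th encodes tyrosine hydroxylase, the rate-limiting enzyme of catecholamine synthesis. Its level from coronal fraction 1 to 10 was 1.74, -0.15, 1.17, 3.26, 2.83, 1.15, 1.18, 1.04, 1.91 and 4.54. The highest value was at the olfactory bulb end, and fractions 4 and 5 formed a separate rise. On the linear scale, fraction 10 held 41.0% of the coronal signal of Th and fractions 4 and 5 together held 29.4%. Its horizontal levels were -0.19, -0.03, -0.01, 2.92, 3.19 and 1.74, so that fractions 4 to 6 did not overlap 1 to 3. Its sagittal levels were 0.21, 1.60, 2.32, 2.58, 2.09 and 0.53, highest in the middle slabs.

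Ddc encodes aromatic L-amino acid decarboxylase, which makes dopamine from L-DOPA and serotonin from 5-hydroxytryptophan. From coronal fraction 1 to 10 it measured 2.54, 1.69, 2.36, 3.26, 2.07, 1.21, 0.91, 0.77, 0.04 and 0.82. It peaked in fraction 4 and stayed high toward the Hox end, and fractions 1 to 3 held 38.6% of its linear coronal signal against 37.6% in fractions 4 and 5. The horizontal levels of Ddc were -0.10, -0.39, 0.85, 2.03, 2.49 and 2.60, with the highest in the last fraction. Along the sagittal series they were -0.51, 1.41, 2.19, 2.35, 1.66 and 0.90. A second probe, for another Ddc transcript, also peaked in coronal fraction 4 (r = 0.9001 with the first over the 22 fractions).

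Slc6a3 encodes the dopamine transporter, which returns released dopamine to the neuron. Its coronal levels were -2.81, -3.70, -2.60, 2.85, 3.30, -0.80, -1.37, -1.18, -0.65 and -0.37. Fractions 4 and 5 stood above all the others and held 84.2% of the linear coronal signal, while fraction 10, where Th was highest, held 3.82%. Horizontal levels were -2.96, -3.18, -2.61, 1.65, 1.90 and 0.04. Sagittal levels were -2.54, 0.50, 1.503, 0.41, 0.75 and -0.91, with fraction 1 the lowest.

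Slc18a2 encodes the vesicular monoamine transporter VMAT2, which loads dopamine, noradrenaline and serotonin into vesicles. Its coronal levels were -0.65, -0.97, -0.16, 0.87, 0.72, 0.55, -0.60, -1.26, -0.66 and -1.33. Fractions 4, 5 and 6 were the highest, within 0.32 log2 units of each other, and held 54.4% of the linear signal, where an even spread would give 30.0%. Its horizontal range was -1.86 to 0.23 and its sagittal range -1.25 to 0.51, highest in horizontal fraction 4 and sagittal fraction 3. A second probe of the gene peaked in coronal fraction 4 as well (r = 0.899), and was well above background on 17 arrays.

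Pitx3 encodes a homeodomain factor needed for dopaminergic neurons of the substantia nigra, and is also a lens gene. Its levels along the coronal series were -3.41, -3.96, -2.82, -1.52, -1.80, -3.30, -3.41, -3.25, -2.73 and -2.71. Fractions 4 and 5 were the highest, by 0.91 log2 units or more over every other fraction. In the horizontal series Pitx3 lay between -3.57 and -2.18, and in the sagittal series between -3.36 and -2.20.

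Nr4a2 encodes Nurr1, an orphan nuclear receptor that turns on Th, Slc6a3, Slc18a2 and Ddc in dopaminergic neurons, and that is also known from the cortical subplate and the claustrum. The coronal levels of Nr4a2 were -0.23, 0.15, -0.07, 3.33, 3.09, 2.79, 2.12, 1.36, 1.39 and 0.36. They stepped up between fractions 3 and 4 and then fell off gradually, so that fractions 7 to 9 remained above fractions 1 to 3. In the horizontal series they were -1.10, 1.09, 1.72, 2.33, 2.14 and 0.27. In the sagittal series they were 3.27, 1.29, 0.81, 0.84, 0.35 and 1.55, highest in fraction 1 and lower in fractions 3 to 5 than in every other fraction. A second Nr4a2 probe peaked in coronal fraction 4 too (r = 0.969).

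Foxa1 and Foxa2 encode forkhead factors of the floor plate that work together in specifying and keeping dopaminergic neurons. Foxa1 was well above background on 11 of the 22 arrays, with coronal levels of -1.52, 0.10, -2.86 and -4.46 in fractions 4 to 7. In the other 6 coronal fractions it was not well above background, with signals at -6.93 to -5.01. Its horizontal levels in fractions 4 to 6 were -2.32, -1.60 and -2.52, and its sagittal levels in fractions 2 to 5 were -3.001, -1.93, -1.83 and -2.89. Foxa2 was well above background on 7 arrays. These were coronal fractions 4 and 5 (-0.99 and -1.01), horizontal fractions 3 to 5 (-4.48, -2.24 and -3.39) and sagittal fractions 3 and 4 (-2.85 and -1.83). The signal of Foxa2 in coronal fractions 3 and 6, next to its peak, was -5.28 and -5.70 and not well above background. A second Foxa2 probe was well above background on 4 arrays and also peaked in coronal fraction 4 (r = 0.912).

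Lmx1a encodes a LIM homeodomain factor of the ventral midbrain that is also made in the roof plate and the choroid-forming hem. In coronal fractions 1 to 7 its levels were -3.36, -1.76, -0.36, -1.14, -0.0012, -1.77 and -2.36, and in fractions 8 to 10 it was not well above background (-4.52, -4.99 and -4.32). Fractions 3 and 5 were the highest, with fraction 4 between them lower. In the horizontal series it was not well above background in fractions 1 and 2 and measured -2.78, -1.15, -0.47 and -2.32 in fractions 3 to 6. The sagittal levels of Lmx1a were -3.91, -1.29, -1.26, -1.06, -1.08 and -2.003.

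**Figure D2:**
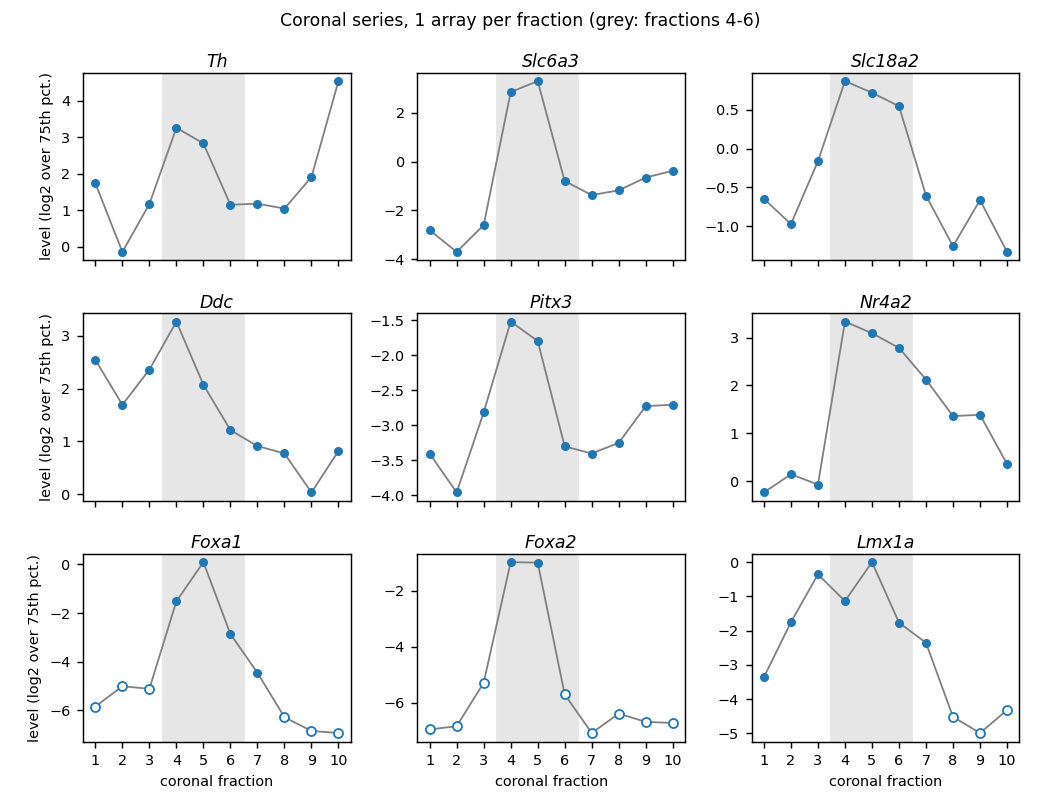
Level (log2 over the array's 75th percentile) of each gene along the 10 coronal fractions, 1 array per point, with fractions 4 to 6 shaded and open points not well above background. The vertical axes differ between panels. Slc6a3, Foxa1 and Foxa2 are highest in fractions 4 and 5, with Foxa1 also above background in 6 and 7, Th rises again to 4.54 in fraction 10, Ddc stays high in fractions 1 to 3, and Lmx1a is high from fraction 2.

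Whether the genes changed along the coronal axis was asked with a limma F test of the linear term and the quadratic term of slab position, adjusted by Benjamini-Hochberg over all 39621 probes, with a threshold of 0.05. Of all probes 19.8% passed, 12.4% with a linear term that rose with fraction number and 7.46% with a falling term. Of the 9 genes 5 passed, Nr4a2 with a rising and the other 4 with a falling term, that is Nr4a2 (adjusted p = 0.0087), Ddc (0.026), Lmx1a (0.031), Foxa1 (0.035) and Slc18a2 (0.045). Their fitted ranges were 3.21, 2.39, 4.51, 5.72 and 1.93 log2 units. Those of Lmx1a and Foxa1 include signals not well above background, and with normexp background correction they were 1.88 (adjusted p = 0.052) and 1.70 (0.14), no longer past the threshold. On its second probe Slc18a2 had a range of 1.63 and did not pass (0.32). Slc6a3 had a fitted range of 3.66 (adjusted p = 0.24), Foxa2 of 4.15 (0.22), Th of 2.11 (0.28, with 0.87 without coronal fraction 10) and Pitx3 of 0.76 (0.55, with 0.48 without fraction 1). Over the other ways of processing the range was 1.44 to 4.97 for Slc6a3, 0.97 to 7.85 for Foxa2, 0.58 to 2.98 for Th and 0.056 to 2.30 for Pitx3. These genes passed under none of them. Which genes passed rested on single slabs. Without coronal fraction 9 Nr4a2 alone passed, without 4, 5 or 6 Ddc and Nr4a2 did, without 2 Slc18a2, Ddc and Nr4a2 did, and without 3 or 10 all but Slc18a2 of the 5 did. On slide 1 alone, which held coronal fractions 1 and 3 to 8, Lmx1a alone passed (0.039), and with slide as a block none did (lowest adjusted p = 0.059).

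Coronal fractions 4 to 6, a window chosen with earlier results of these data known, were set against the other 7 in a second limma fit. All 9 genes and 39.0% of all probes were higher in fractions 4 to 6. None of the 9 passed the threshold, as no probe at all did (0% called). At an unadjusted p under 0.05, 7 of the 9 and 17.9% of all probes passed, and 6.82% of all probes did so with the higher level in fractions 4 to 6. The median difference was 2.13 log2 units over the 9 genes and -0.15 over all probes tested. Foxa1 differed by 4.36 ± 0.75 log2 units (SE, 3 against 7 fractions, adjusted p = 0.11, with 1 of the 7 other fractions well above background), Slc6a3 by 3.59 ± 0.84 (0.15), Nr4a2 by 2.35 ± 0.62 (0.19) and Slc18a2 by 1.52 ± 0.29 (0.11). The groups of fractions did not overlap for Slc18a2, Nr4a2 and Foxa1, nor for 5.63% of all probes, 2.55% with fractions 4 to 6 the higher. Foxa2 was not well above background in any of the 7 other fractions, nor in fraction 6. Its mean over fractions 4 to 6, with fraction 6 at its own signal, was 7.98-fold the detection floor of the 7 (adjusted p = 0.15). Such a fold sets the mean over the brighter fractions against the lowest signal well above background on each array, or the probe's own signal where that was higher. It is a lower bound only where every brighter fraction was well above background, and only for the intensities as processed by the scanner software. Lmx1a, well above background in 4 of the 7, differed by 2.13 ± 0.88 (0.25) and Pitx3 by 0.98 ± 0.35 (0.23). Ddc, which was also high in fractions 1 to 3, differed by 0.88 ± 0.53 (0.34) and Th, which was also high in fraction 10, by 0.78 ± 0.68 (0.49). Single slabs moved these and Pitx3. Without fraction 4 the differences were 0.34 for Ddc, 0.36 for Th and 0.63 for Pitx3, and without fraction 6 they were 1.36, 1.41 and 1.53, the lowest and highest for each when 1 fraction was left out. With normexp the differences were smaller for the dimmer probes, at 1.61 for Foxa1, 1.16 for Foxa2, 0.93 for Lmx1a and 0.36 for Pitx3, and none of these passed. On the second probes Ddc differed by 0.58 and Foxa2 by 2.34. Without coronal fraction 7, Slc18a2 and Foxa1 passed (lowest adjusted p = 0.030), and without fraction 6 Foxa2 did (0.027). With fractions 4 and 5 as the window Foxa2 passed as well (0.019). With fractions 5 and 6 as the window the 9 differences were 0.093 (Ddc) to 3.87, and none passed (lowest adjusted p = 0.47). On slide 1 alone the 9 differences were 0.54 to 4.00, and over the arrays whose spike-in slope was accepted they were 0.45 to 4.501, all in the same direction and none past the threshold.

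All 9 genes and 45.1% of all probes were higher in horizontal fractions 4 to 6 than in 1 to 3, and 6 of the 9 passed the same test. Of all probes 22.4% passed, 5.39% with the higher level in fractions 4 to 6 and 17% with the lower. The median difference was 2.39 over the 9 genes and -0.098 over all probes. Slc6a3 was higher by 4.11 ± 1.00 log2 units (SE, 3 against 3 fractions, adjusted p = 0.021), Th by 2.69 ± 0.81 (0.028), Ddc by 2.25 ± 0.63 (0.023), Slc18a2 by 1.26 ± 0.34 (0.022) and Lmx1a by 3.21 ± 1.04 (0.036, with 1 of fractions 1 to 3 well above background). Foxa1, not well above background in fractions 1 to 3, was at least 11.7-fold higher (0.021). Foxa1 entered the test in this series only through fractions 4 to 6, as Foxa2 did in the coronal and sagittal series only through the fractions where it was high, so a higher level there was built into the filter. With no filter on detection Foxa1 had an adjusted p of 0.025. The bound holds for the intensities as processed by the scanner software, and with normexp the difference of Foxa1 was 1.26 log2 units (adjusted p = 0.040) and that of Lmx1a 1.20, which no longer passed (0.095), while Foxa2 differed by 0.54 and Pitx3 by 0.40. Foxa2, well above background in 2 fractions of the first group and 1 of the second, differed by 2.39 ± 1.03 (0.10), Pitx3 by 0.84 ± 0.41 (0.14) and Nr4a2 by 1.01 ± 0.74 (0.34). The value of Nr4a2 was 0.17 without horizontal fraction 1 and 1.66 without fraction 6. The groups overlapped for Nr4a2 and Foxa2 and for none of the other 7. They did not overlap for 45.7% of all probes, 17.4% with fractions 4 to 6 the higher. Horizontal fractions 1 to 3 were also the 3 arrays of that series with the spike-in slope out of range, so that position and this array property cannot be told apart. With the spike-in probe a107 as a covariate the 9 differences were 0.0017 to 2.67, all in the same direction, and none passed (lowest adjusted p = 0.996). None of the 9 passed without horizontal fraction 1, 2, 4, 5 or 6 (lowest adjusted p = 0.056, 0.097, 0.058, 0.068 and 0.053). On the second Ddc probe the horizontal difference was 1.62 and no longer passed (adjusted p = 0.098), while on the second Slc18a2 probe it was 2.41 and passed (0.021) and on the second Foxa2 probe 1.15 (0.28). With quantile scaling Pitx3 differed by 1.84 and passed (0.033).

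Sagittal fractions 3 to 5, the middle slabs, were higher than fractions 1, 2 and 6 for 8 of the 9 genes and for 39.7% of all probes. None passed, nor did any probe (0% called). At an unadjusted p under 0.05, 4 of the 9 genes and 1.87% of all probes passed, 0.79% of all probes with the middle higher. The median difference was 1.47 over the 9 genes and -0.084 over all probes. The mean of Foxa2 in the middle, with fraction 5 not well above background and at its own signal, was 6.59-fold the detection floor of the outer fractions. Foxa1, well above background in 1 of the 3 outer fractions, differed by 3.12 ± 0.89 log2 units, Slc6a3 by 1.87 ± 1.00, Th by 1.55 ± 0.81, Ddc by 1.47 ± 0.63, Lmx1a by 1.27 ± 1.04, Slc18a2 by 0.86 ± 0.34 and Pitx3 by 0.29 ± 0.41 (SE, 3 against 3 fractions). Nr4a2 went the other way, by -1.37 ± 0.74. With normexp the differences were 0.985 for Foxa1, 0.72 for Foxa2, 0.64 for Lmx1a and 0.091 for Pitx3. Without sagittal fraction 1, whose spike-in slope was out of range, the differences were 2.09 for Foxa1, 1.09 for Slc6a3, 0.91 for Ddc, 0.51 for Lmx1a, 0.0050 for Pitx3 and -0.75 for Nr4a2. Slc18a2 was at 0.55 without sagittal fraction 3, and Pitx3 at 0.13 without fraction 5 and 0.58 without fraction 6. On the second probes Ddc differed by 0.78 and Foxa2 by 1.85. All 9 had an adjusted p of 1.00.

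**Figure D3:**
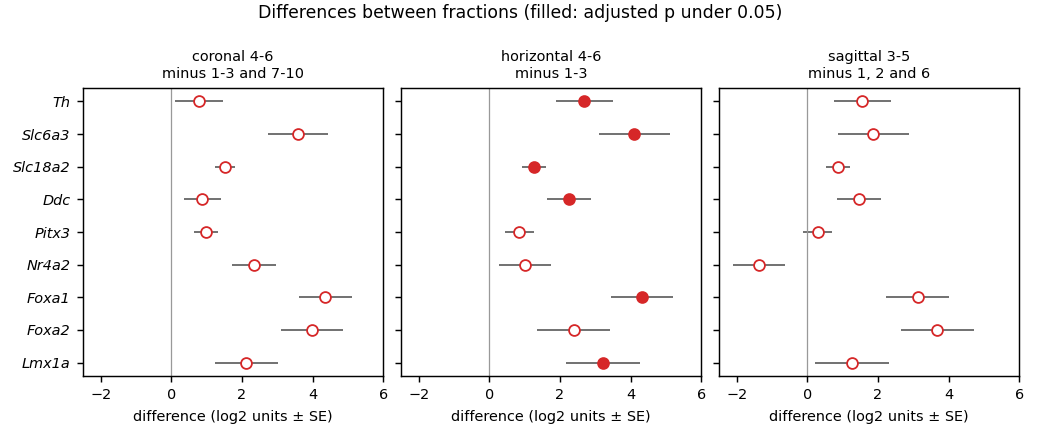
Difference in mean level (log2 units, with SE) between groups of fractions for each gene, from left to right in the coronal, horizontal and sagittal series. Filled points passed the adjusted threshold of 0.05, which 6 genes did in the horizontal series and none did in the others, and only Nr4a2 in the sagittal series lies below 0.

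Markers of other aminergic neurons were high in some of the same slabs. All 4 serotonergic markers, Tph2 (tryptophan hydroxylase), Slc6a4 (serotonin transporter), Fev and Gata3, were highest in coronal fraction 4, where Slc6a4 measured 1.31 against -1.48 in fraction 5 and -1.06 in fraction 3. Ddc, Slc18a2, Nr4a2, Pitx3 and Foxa2 had their highest coronal level in that same fraction, and Slc6a3, Foxa1 and Lmx1a in fraction 5. The noradrenergic markers Dbh (dopamine beta-hydroxylase), Slc6a2 and Phox2a were highest in coronal fraction 3. Dbh measured 2.20 in fraction 3 and 1.13 in fraction 1, where Th measured 1.17 and 1.74, and -1.53 in fraction 2, where Th had its lowest coronal level. In a slab, fewer cells of a type and less RNA per cell cannot be told apart, and the share of each type of neuron in these levels was not tested.

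At the other end, Tbx21, Eomes, Cdhr1 and Doc2g of olfactory bulb projection neurons were highest in coronal fraction 10, with Tbx21 at 2.87 there and at or below -1.18 in every other coronal fraction. Of the 4 tested genes of the bulb interneuron list, Etv1 and Meis2 were highest in fraction 10 (4.52 and 5.29) and Sall3 and Pax6 in fraction 2, while Scgn was not in the tested set. Th was the only one of the 9 genes that was highest in fraction 10. The other markers named here had their highest coronal level outside fractions 4 and 5. Of the hypothalamic neuropeptides Avp, Pmch, Hcrt and Pomc were highest in fraction 6 and Oxt in 7, the striatal genes Drd1, Adora2a and Rxrg in 8, and the cortical genes Tbr1 and Neurod6 in 9. Pcp2, Cbln1 and Barhl1 of the cerebellum were highest in fraction 3 and Calb2 in 10. Tbr1, a factor of cortical projection neurons, stepped up from -1.92 in coronal fraction 3 to 2.45 in fraction 4, the same step at which Nr4a2 rose, and its part in the level of Nr4a2 was not tested.

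**Figure D4:**
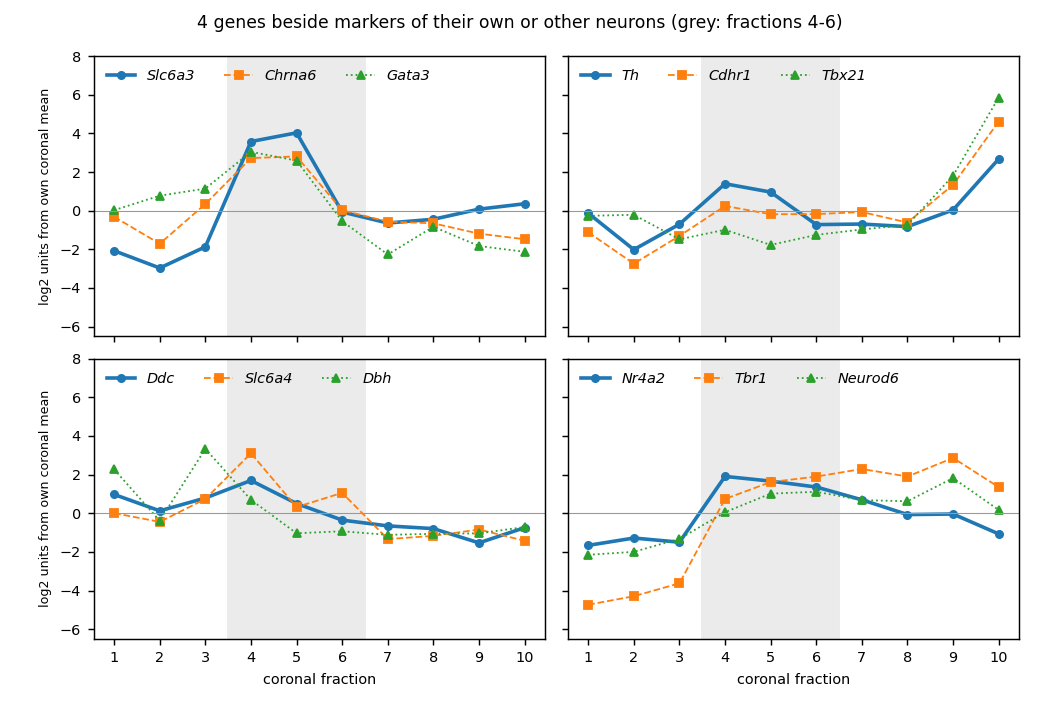
Slc6a3, Th, Ddc and Nr4a2 beside markers along the 10 coronal fractions, each gene as log2 units from its own coronal mean, 1 array per point, with fractions 4 to 6 shaded. Th rises from a level of 1.91 in fraction 9 to 4.54 in fraction 10, where Cdhr1 and Tbx21 of the olfactory bulb also rise. Slc6a3 rises less over the same step, from a level of -0.65 to -0.37. Ddc peaks with Slc6a4 in fraction 4, and Nr4a2 and Tbr1 both step up between fractions 3 and 4.

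The wider pathway was read from a list of 14 genes of dopamine and tetrahydrobiopterin metabolism, of which 13 were tested. None passed for coronal fractions 4 to 6 (2 at an unadjusted p under 0.05, 6 of 13 higher, median difference -0.0021). The shares of all probes were 0% past the adjusted threshold, 17.9% unadjusted and 39.0% higher in sign. In the horizontal series 3 passed the adjusted threshold with the higher level in fractions 4 to 6 and none with the lower, against 5.39% and 17% of all probes, while 10 of 13 and 45.1% of all probes were higher in sign, with a median of 0.50 over the list. The list was spread over the axis, and its members had their highest coronal level in 8 of the 10 fractions. Of 27 further genes of midbrain dopaminergic neurons and their development, 22 were tested. None passed for coronal fractions 4 to 6 (6 unadjusted, 16 of 22 higher, median 0.44), against the same shares of all probes. In the horizontal series 5 passed with the higher level in fractions 4 to 6 and 1 with the lower, and 14 of 22 were higher in sign, beside the horizontal shares of all probes given for the first list. Their highest coronal level was in fraction 4 for 3 genes and in fraction 5 for 4, and in fractions 1 and 2 for 10. Chrna6, a nicotinic receptor subunit of dopaminergic terminals, came closest to Slc6a3, with 0.40 and 0.49 in coronal fractions 4 and 5 and at most -1.97 in every other.

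Likeness of profile was measured by Pearson r over the 22 fractions against 16690 other genes, as a description. Fractions of a series share their brain and the array scaling, and the series pooled in r come from different mice. The 10 genes most like Slc6a3 were Asic4 (r = 0.848), Pitx3 (0.839), Chrna6 (0.837), Foxa1 (0.826), Pcdh18 (0.814), Rspry1, Ptprz1, Kdm2a, Eml4 and Adrb3 (0.799). They were all highest in coronal fraction 4 or 5. Those most like Th were Pbx3 (0.867), Pcbp3, Cdhr1 (0.857), Calb2 (0.856), Spsb4, Rflna, Otop2, Wnt10a, Maob (0.837) and Heyl, and all 10 were highest in coronal fraction 10. The lists of Slc6a3 and Th had no gene in common. Among the 9 genes themselves no pair reached the r of 0.85 that the study uses for similarly expressed transcripts, and the closest pairs were Slc18a2 with Foxa1 (0.840) and Slc6a3 with Pitx3 (0.839). Over the 22 fractions Nr4a2 was the least like the rest, with a median r of 0.34 to the other 8 genes, against 0.78 for Foxa1 and 0.75 for Slc6a3. This differed by series. Nr4a2 had an r of 0.82 with Slc6a3 and 0.09 with Ddc over the coronal fractions, and of -0.92 with each over the sagittal. Th and Slc6a3 had an r of 0.781 over the 22 fractions. Taken by series, their r was 0.664 over the coronal, 0.996 over the horizontal and 0.895 over the sagittal fractions.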

How the data were processed

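RNA of 22 fractions was measured on 1-colour Agilent SurePrint G3 Mouse arrays designed on mm9. Per the file headers, the authors extracted a processed intensity per spot, background-subtracted and linear, with Feature Extraction 10.10.1.1. A table of log2 values that the authors deposited is log2 of this intensity minus the array's 75th percentile, to within 0.02 for 99.899% of its values. Outlier and control spots were left out, spots of a probe averaged, and the same log2 level computed for 55600 probes. The 75th percentile lay between 259.68 and 603.89 and no spot was saturated. No column was unused. Names came from RefSeq (GRCm38.p6), since mm9 coordinates are not used here, and so did the promoter sequences.

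Tests were run with limma 3.58.1 in R 4.3.3 (eBayes, no trend), Benjamini-Hochberg over 39621 probes. The position model held an intercept plus linear and quadratic terms per series, and the window model 2 means per series. Simulated data with known changes in 200 of the 39621 probes were used as a check, and coronal position recovered 99.5% of these (steps of 10 residual SD), and the coronal, horizontal and sagittal windows 99%, 84% and 89% (5 SD), with 9, 11, 11 and 7 false calls. The simulated noise was independent between arrays and took its SD from the position model. These rates therefore need not hold for the window tests on real slabs. Alternatives were normexp, quantile and median scaling, no scaling, the deposited table, detection filters, spike-in a107, slide, series alone, other windows and probes, and leaving out each fraction. Normexp was run on gMedianSignal, because the mean signal column is not used here. Restriction to slide 1 and to arrays with the slope in range was chosen after seeing the data. The genes, the lists and coronal fractions 4 to 6 as a window were chosen with earlier results of these data known. Text names the 9 genes, genes of a list that pass for coronal fractions 4 to 6, the site markers, and the 10 genes most like Slc6a3 and Th. Some genes of the site lists are not reported here.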

Additional observations from a re-analysis of the deposited data

Results flagged for a closer look

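Each of the 9 genes was looked at for a fraction far from the others in the 3 series, 27 groups in all, and chance flags about 1 group in 20. A single such value was found. Lmx1a in sagittal fraction 1 was at -3.91, below the nearest other sagittal fraction (-2.003) by a gap that was 0.669 of the whole sagittal range. That array is 1 of the 7 with the spike-in slope out of range, and Slc6a3 (-2.54), Pitx3 (-3.36), Th (0.21) and Ddc (-0.51) also had their lowest sagittal value there, while Nr4a2 had its highest (3.27). The part of the array in the Lmx1a value was not tested.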

How the results depend on the processing

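No paired analysis was possible because fractions of different series share only a number and come from different mice. The count of the 9 genes that changed along the coronal axis, 5, became 3 with normexp, quantile scaling, median scaling, only probes detected in all 22 fractions (where 6 genes were tested) or spike-in a107 as a covariate. It became 2 over the arrays of accepted spike-in slope, 1 on slide 1 alone, and 0 with slide as a block or with the coronal arrays alone. The fits on accepted slopes, on slide 1 and on the coronal arrays alone have fewer arrays. Coronal fraction 2 lay on slide 2 and fractions 9 and 10 on slide 3, so slide and coronal position cannot be fully told apart. The cause of these changes was not tested. Leaving out 1 coronal fraction gave 1 to 5. For coronal fractions 4 to 6 the count of 0 became 1 with fractions 4 and 5 as the window, and 0 to 2 without 1 fraction. The horizontal count of 6 became 0 with a107 and was 4 to 8 under the other alternatives (5 with the second probes, on which Ddc was lost), 0 to 6 without 1 horizontal fraction and up to 7 without 1 fraction of any series. The sagittal count was 0 throughout. The number of genes confined to coronal fractions 4 to 6, 3, was 6 within 1 log2 unit and 3 within 3 log2 units, with normexp and with quantile scaling. Pairs with r above 0.85, 0 of them, became 2 with quantile scaling and 0 to 3 without 1 fraction. No difference changed direction under these alternatives. Dim probes limit Foxa1, Foxa2 and Lmx1a, which were below the detection call on 11, 15 and 5 arrays.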
